A study of Mus musculus with 3 samples.

Results

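Histone lysine methyltransferases, the writers of a methyl mark, and histone lysine demethylases, its erasers, were followed in chromatin-bound RNA of mouse macrophages. The 37 genes were taken by symbol from a list of such enzymes, chosen with earlier results of these data known. All 37 were found among the 55536 annotated mouse genes of the tables. The Kdm genes together with Phf8 and Jmjd1c formed the 15 erasers, and the other 22 genes formed the writers. All libraries belonged to 1 group, cultured macrophages derived from bone marrow of strain C57BL/6J, for which the labels give no further genetic change. The cells had received 100 ng/ml lipid A for 30 min; lipid A is the part of bacterial endotoxin that the receptor TLR4 senses. The chromatin fraction is rich in nascent RNA and in RNA that stays in the nucleus, and it was sequenced as total RNA after depletion of ribosomal RNA. The labels number 3 biological replicates under 1 donor record and give neither age nor sex. The starting RNA was 1 µg in library 1, 250 ng in library 2 and 500 ng in library 3, so the amount and the library cannot be told apart. No unstimulated library was analysed here, and all values below are levels after lipid A, not induction.

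Methyl groups on lysines of histone H3 mark chromatin in different ways, depending on the residue. Methylated lysine 4 (H3K4) lies at promoters and enhancers of active genes, lysines 36 and 79 (H3K36, H3K79) are methylated along transcribed genes, and methylated lysines 9 and 27 (H3K9, H3K27) are typical of silent chromatin. Writers carry mostly a SET domain, and most erasers carry a JmjC domain that uses iron and 2-oxoglutarate. Kdm6b, also called JMJD3, removes methyl groups from H3K27 and is known in macrophages as a gene induced by endotoxin through NF-kappaB, the reason for asking where it stood among the other enzymes.

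Sequences are shown for the ends of the range of levels and for an unusual transcript of Kdm6b. The promoter windows come from RefSeq on build GRCm38.p6, run from 250 bases before to 50 bases after an annotated start, and have each CpG in capitals. Jmjd1c was the highest eraser, Kmt2d the highest writer and Suv39h1 the lowest member. The Jmjd1c window is chr10:67126838-67127137 on the plus strand, the Kmt2d window chr15:98871156-98871455 on the minus strand and the Suv39h1 window chrX:8074312-8074611 on the minus strand. The last sequence is part of Kdm6b-202 from GENCODE M21 (chr11:69403458-69403617, minus strand, GRCm38), with the last 40 bases of an exon in lower case and the first 120 bases of the intron that follows in capitals.
Jmjd1c: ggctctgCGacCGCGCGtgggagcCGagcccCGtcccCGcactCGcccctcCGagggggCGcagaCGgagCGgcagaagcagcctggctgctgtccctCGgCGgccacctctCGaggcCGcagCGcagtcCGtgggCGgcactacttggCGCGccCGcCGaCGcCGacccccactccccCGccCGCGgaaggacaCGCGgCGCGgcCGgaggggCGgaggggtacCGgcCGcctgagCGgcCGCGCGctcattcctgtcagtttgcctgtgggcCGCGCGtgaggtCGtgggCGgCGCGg
Kmt2d: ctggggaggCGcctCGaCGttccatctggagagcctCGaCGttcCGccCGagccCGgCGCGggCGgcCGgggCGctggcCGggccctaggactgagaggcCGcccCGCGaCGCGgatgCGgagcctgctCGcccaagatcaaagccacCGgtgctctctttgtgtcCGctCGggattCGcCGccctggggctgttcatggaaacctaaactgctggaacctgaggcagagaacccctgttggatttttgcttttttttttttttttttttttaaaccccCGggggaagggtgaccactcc
Suv39h1: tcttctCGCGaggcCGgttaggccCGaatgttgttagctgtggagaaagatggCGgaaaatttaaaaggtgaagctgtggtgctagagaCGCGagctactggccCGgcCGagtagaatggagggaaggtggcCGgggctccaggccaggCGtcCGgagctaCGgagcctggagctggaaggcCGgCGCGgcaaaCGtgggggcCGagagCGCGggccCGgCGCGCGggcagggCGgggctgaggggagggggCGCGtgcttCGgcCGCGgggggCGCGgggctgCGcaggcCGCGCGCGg
Kdm6b-202: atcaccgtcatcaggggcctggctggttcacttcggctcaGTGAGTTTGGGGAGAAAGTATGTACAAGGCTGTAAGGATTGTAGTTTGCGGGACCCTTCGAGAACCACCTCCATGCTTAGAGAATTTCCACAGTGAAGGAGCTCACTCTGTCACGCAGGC

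The printed windows held 47 CpG for Jmjd1c, 27 for Kmt2d and 37 for Suv39h1. For a gene with several annotated starts the window with the most CpG is printed, and the other window held 13 CpG for Jmjd1c and 15 for Suv39h1. The table matched 26 members by symbol, with 35 windows of 300 bases in all. The members not matched were Kmt2e, Kdm5a, Smyd3, Kdm3b, Kdm2a, Ash1l, Kmt2b, Setd1b, Nsd1, Kdm6b and Kdm4b. The member windows held a median of 28 CpG, between 0 and 65, against a median of 7 over all 32851 mouse windows. At least 15 CpG stood in 30 member windows, which is 85.7% of them, against 34.6% of all windows. The TATA motif TATAAA, searched on both strands, matched 0 member windows and 13.6% of all windows. A match or its absence describes these letters in these windows only.

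The libraries held 16301150, 17033725 and 16205704 expected counts, that is estimated reads, on annotated genes. A count of 0 in such a library allows up to 3 counts, or between 0.176 and 0.185 CPM, that is counts scaled by library total, which covers counting error only. Macrophage markers were all present (10 of 10 detected, summed TPM from 646 to 1010), while the defining markers of T cells, B cells, neutrophils and mast cells were detected for 0 of 4 genes each. Dendritic cell markers were detected for 1 of 4 genes and stromal and endothelial markers for 2 of 4 each, with summed TPM of at most 1.21, 0.81 and 2.46 in any library. In bulk RNA fewer cells of a type and less RNA per cell cannot be told apart.

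Every member was transcribed at a measurable level. All 22 writers and all 15 erasers averaged 10 or more expected counts, against 49.9% of the 22028 annotated protein-coding genes. A member collected from 77 to 22773 expected counts in a library, and all members together held 0.864% ± 0.059 of expected counts (SD, n = 3). On the TPM scale, which divides estimated reads by transcript length and scales each library to a fixed total, the member median was 20.2, 26.9 and 33.4 in libraries 1, 2 and 3. The median of the 10983 detected protein-coding genes was 3.48, 4.45 and 6.88 TPM in the same libraries. The members thus stood in the upper part of the range, at a median percentile of 85.5 among detected protein-coding genes. A mean of at least 10 TPM was reached by 28 members, 16 writers and 12 erasers, which is 75.7% of members against 33.3% of detected protein-coding genes. A mean of at least 50 TPM was reached by 10 members, 7 writers and 3 erasers, and the share of other genes at that level was not taken.

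**Figure D1:**
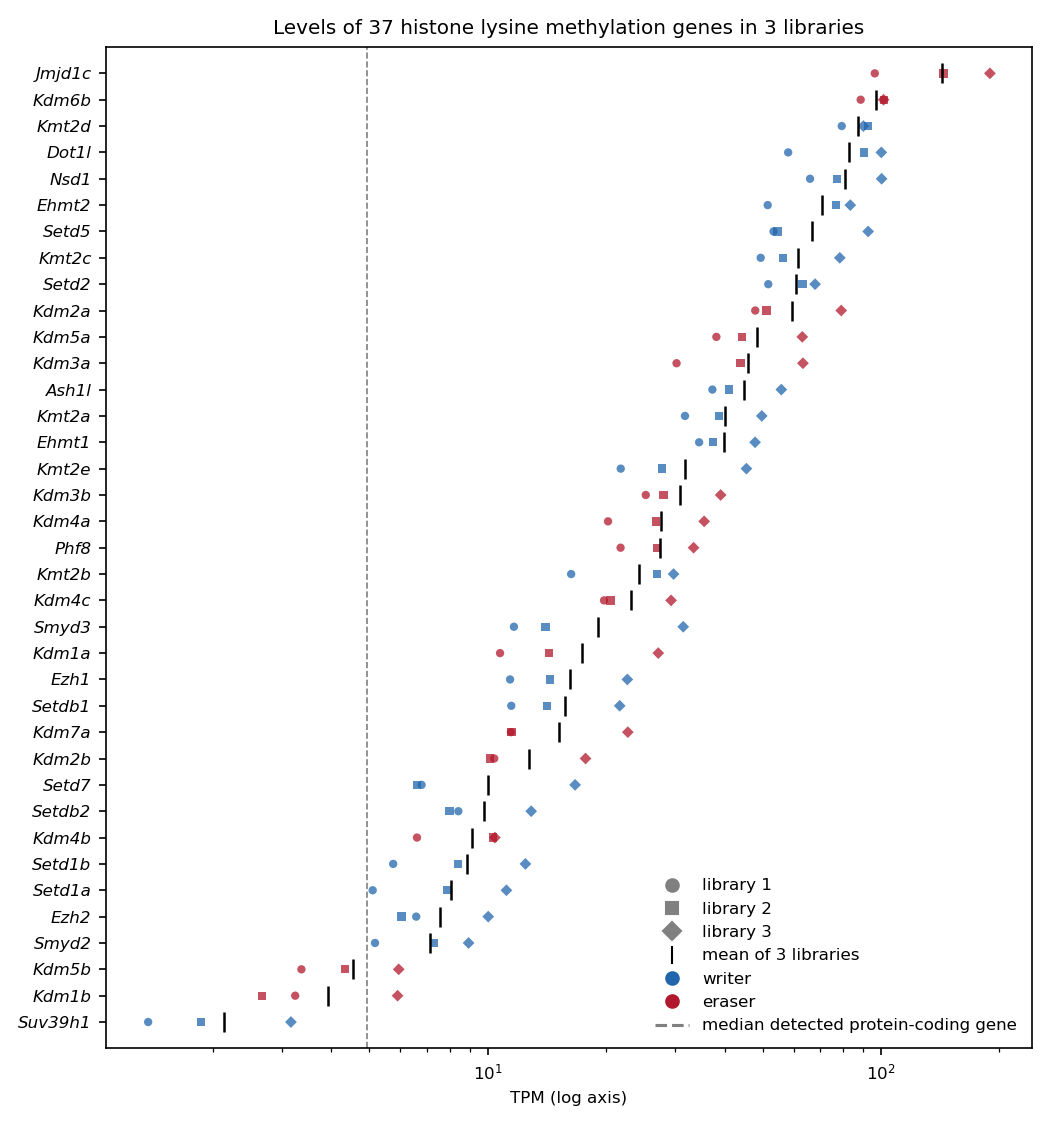
TPM of each of the 37 genes (log axis) in libraries 1, 2 and 3, writers in blue and erasers in red, with a black tick at the mean and a dashed line at 4.94 TPM, the mean over libraries of the median detected protein-coding gene. Jmjd1c and Kdm6b head the order at means of 143 and 97.4 TPM, writers and erasers are mixed along it, and Suv39h1 ends it at 2.13 TPM.

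As groups, writers and erasers were not apart. The writer median was 19.0, 27.3 and 38.4 TPM in libraries 1, 2 and 3, and the eraser median was 20.2, 26.8 and 33.4 TPM. Writers were below erasers in library 1 and above them in libraries 2 and 3, so neither class was higher throughout. The difference of medians on the log2(TPM + 0.1) scale, writers minus erasers, was −0.10, 0.03 and 0.18 in libraries 1, 2 and 3 and averaged 0.03 ± 0.14 (SD, n = 3). With 3 libraries an exact sign-flip test could not give a p below 0.25, and no test was made. The value depended on who was counted as a writer: without Kmt2e and Setd5, SET-domain genes with no settled methyltransferase activity, it was −0.37. Without the 16 members whose exons overlap an annotated exon on the opposite strand it was 0.86, and in a second deposited quantification it was 0.34 ± 0.19 and positive in 3 of 3 libraries.

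Kdm6b stood near the top of the erasers and of all members. Kdm6b (ENSMUSG00000018476.7, chromosome 11, 69398508 to 69413675, minus strand, GRCm38) had 88.8, 102 and 102 TPM in libraries 1, 2 and 3, on 8659, 10190 and 7089 expected counts. Its TPM values lay close together, while its range of log2 CPM over libraries, 0.60, was among the widest of the members. Its mean of 97.4 ± 7.44 TPM (SD, n = 3) fell at percentile 97.0 of detected protein-coding genes. It ranked 2 in each library, and 35 of the 36 other members, all 22 writers among them, were below it in 3 of 3 libraries. In the second quantification 32 of the 36, with 20 of the writers, were below it in each library. Kdm6b minus the median of the 14 other erasers was 2.15, 2.11 and 1.70 on the log2 scale and averaged 1.98 ± 0.25, a 3.96-fold difference. Kdm6b minus the writer median averaged 1.85 ± 0.41. Without length correction, in CPM, Kdm6b ranked 7 of 37, and with annotated protein-coding transcripts alone it ranked 4. That last rank leaves out a short noncoding form of Kdm6b but keeps short forms of other genes that are annotated as protein-coding.

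The member above Kdm6b was Jmjd1c (ENSMUSG00000037876.17, chromosome 10, 67096125 to 67256326, plus strand), a JmjC-domain relative of the H3K9 demethylases Kdm3a and Kdm3b whose own enzymatic activity has been disputed. Kdm6b minus Jmjd1c was −0.12, −0.50 and −0.90 on the log2 scale in libraries 1, 2 and 3, so the sign held while the size varied, and the mean was −0.51 ± 0.39. Jmjd1c itself had 96.4, 144 and 189 TPM, a mean of 143 ± 46.4. In protein-coding transcripts alone Jmjd1c minus Kdm6b was 0.07 ± 0.08 and positive in 2 of 3 libraries, and in the second quantification it was 0.37 ± 0.40, also positive in 2 of 3. The order of these leading genes therefore did not hold under every way of counting.

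Just below came Kmt2d (ENSMUSG00000048154.17, chromosome 15, 98831669 to 98871204, minus strand), the H3K4 methyltransferase of enhancers, with 79.5, 92.7 and 90.2 TPM in libraries 1, 2 and 3. Kdm6b minus Kmt2d was 0.16, 0.13 and 0.17 on the log2 scale, a small difference with the same sign in each library and a mean of 0.16 ± 0.02. The sign turned with protein-coding transcripts alone, where it was −0.51 ± 0.06, while the second quantification gave 0.43 ± 0.02. By expected counts Kmt2d collected the most reads of any member, 21411, 22773 and 17136. Its main transcript, Kmt2d-201, held 51.9% ± 4.49 of its TPM and has 19823 bases against 6654 in Kdm6b-201.

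Against the writers of its own mark, Kdm6b was higher throughout. Ezh1 and Ezh2 are the alternative catalytic subunits of PRC2, the complex that methylates H3K27. Kdm6b minus Ezh1 averaged 2.64 ± 0.42 on the log2 scale (6.24-fold), and Kdm6b minus Ezh2 averaged 3.70 ± 0.36 (13.0-fold), both positive in 3 of 3 libraries. The size of the second difference moved with the counting, to 3.02 ± 0.31 in the second quantification and 4.997 ± 0.19 with protein-coding transcripts alone, again positive in 3 of 3 libraries. Ezh1 had 11.4, 14.4 and 22.7 TPM in libraries 1, 2 and 3, and Ezh2, the form typical of dividing cells, had 6.58, 6.04 and 10.03 TPM. Ezh1 minus Ezh2 was 1.06 ± 0.24, positive in each library, in the second quantification 0.72 ± 0.20 and with protein-coding transcripts alone 2.36 ± 0.34. Kdm7a and Phf8, erasers with activity on H3K9 and H3K27 methylation, were below Kdm6b by 2.74 ± 0.52 and 1.85 ± 0.22 in log2.

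**Figure D2:**
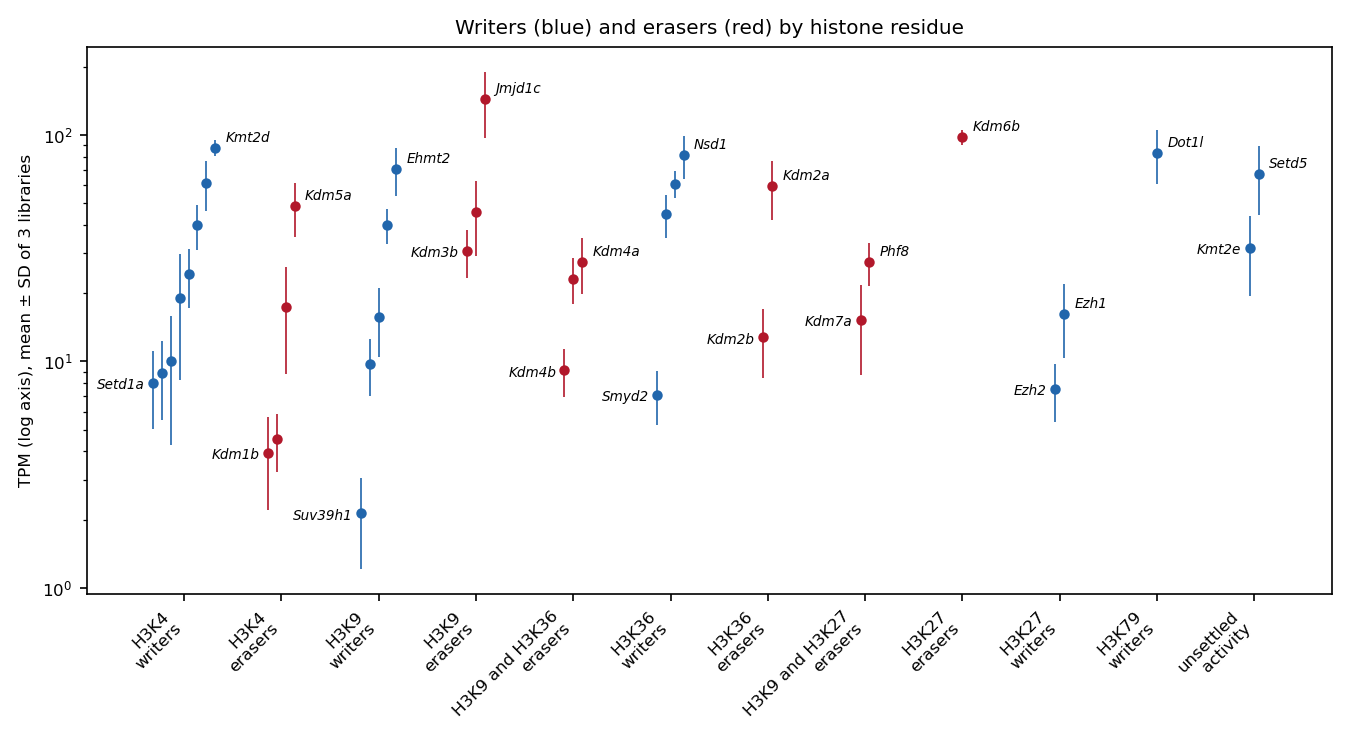
Mean TPM ± SD of 3 libraries (log axis) of each member, grouped by the residue it acts on, writers in blue and erasers in red, with the highest and lowest of each group named. Kdm6b at 97.4 TPM lies far above Ezh1 at 16.1 and Ezh2 at 7.55 TPM, the H3K4 erasers other than Kdm5a lie under the H3K4 writer Kmt2b at 24.3 TPM, and the H3K9 writers range from 2.13 TPM (Suv39h1) to 70.7 TPM (Ehmt2).

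For H3K4, writers were above erasers in each library. The 8 writers had a median of 21.7 TPM and the 4 erasers one of 11.0 TPM, and the log2 difference was 1.18, 1.29 and 1.26, on average 1.24 ± 0.05. It was 1.22 ± 0.30 in the second quantification and 1.59 ± 0.06 with protein-coding transcripts alone, positive in 3 of 3 libraries in each. Within the writers the enhancer enzymes led, with Kmt2d followed by Kmt2c at 61.5 ± 15.2 TPM. Kmt2a, the founding MLL gene, had 40.1 ± 9.08 TPM and its relative Kmt2b 24.3 ± 7.07 TPM. The remaining H3K4 writers were lower: Smyd3 had 19.0, Setd7 10.02, and Setd1b and Setd1a, the catalytic subunits of the SET1 complexes, 8.88 and 8.05 TPM. Kmt2d minus Setd1a was 3.49 ± 0.47 in log2, an 11.3-fold difference, and 2.79 ± 0.29 in the second quantification.

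The H3K4 erasers were split between a high and a low relative in each pair. Kdm5a had 38.1, 44.3 and 63.1 TPM in libraries 1, 2 and 3, while its paralog Kdm5b had 3.36, 4.34 and 5.94 TPM. Kdm5a minus Kdm5b was 3.39 ± 0.07 in log2, a 10.5-fold difference, 3.39 ± 0.13 in the second quantification but 1.67 ± 0.22 with protein-coding transcripts alone. The flavin-dependent erasers showed the same kind of split. Kdm1a, also called LSD1, had 17.4 ± 8.62 TPM, and its paralog Kdm1b had 3.24, 2.67 and 5.90 TPM. Kdm1a minus Kdm1b was 2.09 ± 0.35 in log2, but 1.27 ± 0.42 in the second quantification and 1.03 ± 0.30 with protein-coding transcripts alone, positive in 3 of 3 libraries in each. Kdm1b was the lowest eraser by mean TPM, while in the second quantification it had 8.87 ± 3.89 TPM and Kdm5b was the lowest at 5.54 ± 1.43 TPM.

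For H3K9 the direction was the opposite, with the median of the 5 writers below that of the 6 erasers in each library. These erasers were Kdm3a, Kdm3b, Jmjd1c, Kdm4a, Kdm4b and Kdm4c, while Kdm7a and Phf8 were left out. The writer median was 15.8 TPM and the eraser median 29.2 TPM, and writers minus erasers was −0.97, −0.95 and −0.78, on average −0.90 ± 0.10 in log2. The second quantification gave −1.37 ± 0.16 and protein-coding transcripts alone −1.03 ± 0.06. Among the writers Ehmt2 (G9a), which dimethylates H3K9 together with its partner Ehmt1 (GLP), had 51.5, 76.9 and 83.5 TPM in libraries 1, 2 and 3. Ehmt1 had 39.9 ± 7.03 TPM, and Ehmt2 minus Ehmt1 was 0.81 ± 0.23 in log2 but 0.24 ± 0.22 in the second quantification, positive in 3 of 3 libraries in each. The trimethylating enzymes were lower: Setdb1 had 15.8 ± 5.28 TPM, Setdb2 9.77 ± 2.72 TPM, and Suv39h1, the enzyme of pericentric heterochromatin, had 1.37, 1.87 and 3.16 TPM on 77, 107 and 123 expected counts, the least of all members.

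Every H3K9 eraser was above Suv39h1. Kdm3a had 45.8 ± 16.6 TPM and Kdm3b 30.8 ± 7.35 TPM. Jmjd1c minus Kdm3a was 1.65 ± 0.07 in log2, and Jmjd1c minus Kdm3b was 2.19 ± 0.23, or 1.33 ± 0.15 with protein-coding transcripts alone. The Kdm4 enzymes, which act on H3K9 and H3K36, had 27.5 ± 7.66 TPM for Kdm4a, 23.2 ± 5.27 TPM for Kdm4c and 9.12 ± 2.17 TPM for Kdm4b. Kdm4b was also the member for which quantifications differed most: the second gave 32.3 ± 6.46 TPM, 3.54-fold more. The first quantification differed within itself too. Its posterior mean TPM, another estimate of the same level, averaged 33.7 for Kdm4b, and its interval bounds ran from 5.93 to 53.1 in library 1. A 130-base processed transcript, Kdm4b-206, held 53.3% of the second value.

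The H3K36 writers were led by Nsd1, which dimethylates H3K36, with 66.0, 77.2 and 100.4 TPM in libraries 1, 2 and 3. Setd2, the trimethylating enzyme that travels with RNA polymerase II, had 60.9 ± 8.37 TPM and Ash1l 44.7 ± 9.77 TPM. Smyd2, which also methylates non-histone proteins, was far below them at 5.17, 7.30 and 8.94 TPM. Of the H3K36 erasers, Kdm2a had 47.9, 51.1 and 79.2 TPM and Kdm2b, a subunit of a variant Polycomb complex, had 12.8 ± 4.31 TPM. Kdm2a minus Kdm2b was 2.22 ± 0.09 in log2. The Kdm4 enzymes, which act on H3K36 too, were counted with the H3K9 erasers and left out here. Writers minus erasers of H3K36 was 0.95 ± 0.22 over 4 and 2 genes, positive in 3 of 3 libraries. It was 1.37 ± 0.07 with protein-coding transcripts alone, positive in 3 of 3, but 0.12 ± 0.17 in the second quantification, positive in 2 of 3.

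Dot1l, the only writer of H3K79, had 58.1, 90.6 and 100.2 TPM in libraries 1, 2 and 3, low in library 1 and nearer to Kdm6b in the other libraries. Kdm6b minus Dot1l was 0.27 ± 0.31 in log2 and Kdm6b minus Nsd1 was 0.28 ± 0.23, positive in 3 of 3 libraries each. In the second quantification Kdm6b minus Dot1l was −0.006 ± 0.40, positive in 1 of 3 libraries, with Dot1l at 116 ± 24.0 TPM, and Kdm6b minus Nsd1 was 0.25 ± 0.26, positive in 2 of 3. With protein-coding transcripts alone Kdm6b minus Nsd1 was −0.04 ± 0.16. Kdm6b was thus not set apart from these writers under every way of counting. Setd5 and Kmt2e had 66.9 ± 22.4 and 31.7 ± 12.3 TPM. Many neighbours in the order of mean TPM could not be separated. Of 36 neighbouring pairs, 12 had the same sign in 3 of 3 libraries with a mean log2 difference above its SD, and 24 did not. The separated pairs, by TPM of the first quantification, included Jmjd1c over Kdm6b, Kdm6b over Kmt2d, Nsd1 over Ehmt2 and Kdm1b over Suv39h1. Jmjd1c over Kdm6b and Kdm6b over Kmt2d did not hold with protein-coding transcripts alone, as given above. The pairs not separated included Kmt2d and Dot1l, Dot1l and Nsd1, and Kdm5b and Kdm1b.

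Partners and other enzymes of the same pathways, listed with earlier results of these data known, were mostly detected but lower than the leading members. Of the COMPASS and MLL complex subunits, which the H3K4 writers need for full activity, 11 of 12 were detected, and the list median was 8.48 ± 2.86 TPM. Pagr1a was among the 11 through library 2 alone, with 0, 30.45 and 0 expected counts in libraries 1, 2 and 3. At the head of the list were the scaffold Ncoa6 at 28.7 ± 11.1 TPM and the chromatin tether Psip1 at 16.5 ± 8.45 TPM, and the shared subunit Dpy30 was undetected at 0.237 ± 0.071 TPM. All 9 PRC2 subunits found in the files were detected, with a median of 10.6 ± 3.05 TPM, led by the core subunit Eed at 31.4 ± 16.2 TPM and the accessory subunit Aebp2 at 23.7 ± 8.93 TPM. Ezhip was not matched. Partners of Kdm1a and other erasers were detected for 7 of 8 genes, with a median of 9.16 ± 4.07 TPM, led by the deacetylase Hdac1 at 64.0 ± 31.3 TPM and the H3K4 reader Phf21a at 39.3 ± 13.5 TPM. Rcor2 was undetected.

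Among writers outside the 37, 13 of 17 were detected, with a median of 5.47 ± 0.45 TPM, led by the Nsd1 relative Nsd3 at 56.2 ± 19.1 TPM and the H4K20 writer Kmt5b at 31.5 ± 10.1 TPM. Setmar, Smyd1, Mecom and Prdm16 were undetected. Among erasers outside the 37, 5 of 10 were detected, and the list median was 0.30 ± 0.21 TPM. The highest were Kdm6a, the X-linked H3K27 demethylase related to Kdm6b, at 21.9, 24.5 and 46.5 TPM in libraries 1, 2 and 3, and the H3K4 demethylase Kdm5c at 28.3 ± 4.70 TPM. Kdm6a was thus below Kdm6b in each library. Kdm4d, Kdm5d, Uty, Hr and Riox1 were undetected.

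The quantification divided the reads of Kdm6b between a full-length and a short annotated transcript. Kdm6b-201, with 6654 bases in 23 exons, is the protein-coding form, and it had 46.8, 61.7 and 65.6 TPM in libraries 1, 2 and 3. Kdm6b-202 is a noncoding processed transcript of 743 bases in 3 exons, and it had 42.0, 40.1 and 35.9 TPM. Of its bases, 443 lie in exons of Kdm6b-201 and 300 continue from exon 13 into the intron, as in the sequence printed above, where the capitals open with the GTGAG of the intron start. Kdm6b RNA that still held this intron cannot be told apart from the short form here. By TPM the short form made up 40.7% ± 6.07 of the gene (39.1% ± 4.13 in the second quantification), but only 5.37% ± 1.51 of its expected counts, because TPM divides by length. Kdm6b-201 alone held 94.6% ± 1.51 of the expected counts at 58.0 ± 9.92 TPM.

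An antisense gene, Kdm6bos, lies across the locus on the plus strand (chromosome 11, 69401513 to 69402700), and 286 of its 840 exon bases fall in Kdm6b exons. It had 25.7, 26.8 and 21.8 TPM in libraries 1, 2 and 3, on 440, 397 and 214 expected counts. The second quantification listed it higher, at 70.4, 57.3 and 54.8 TPM. How the counting treated strand is not given in the sources used here, so reads of Kdm6b and Kdm6bos in the shared bases are uncertain. The same holds for the other 15 members that overlap exons of an opposite-strand gene, such as Kmt2e with Srpk2 and Setdb1 with Cers2. How common such overlap is among all genes was not counted.

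**Figure D3:**
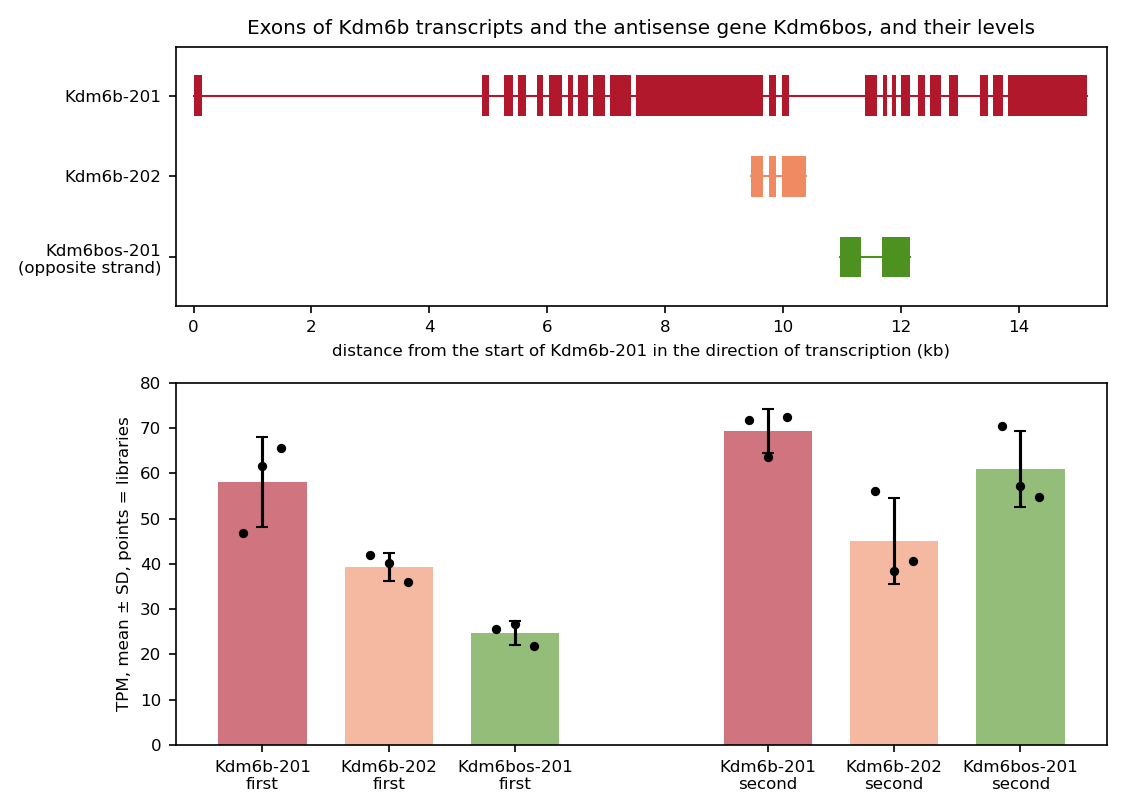
Exons of Kdm6b-201, Kdm6b-202 and the antisense Kdm6bos-201 by distance from the start of Kdm6b-201 in kb (top), and their TPM as bars of the mean ± SD with a point per library in the first and second quantification (bottom). Kdm6b-201 and Kdm6b-202 average 58.0 and 39.3 TPM in the first quantification, and Kdm6bos averages 24.8 TPM in the first and 60.8 TPM in the second.

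Transcripts annotated as noncoding made up a sizable part of many members. The transcript with the largest share was not protein-coding in 6 of 37 members, 3 writers and 3 erasers, which is 16.2% against 29.3% of detected protein-coding genes. These were Ehmt1, Ezh2, Suv39h1, Kdm1a and Kdm2a, each led by a retained-intron transcript, and Kdm5a, led by a target of nonsense-mediated decay. In the second quantification there were 12 such members, 32.4% against 42.9% of detected protein-coding genes. The lists were not the same: 4 of the 6 were among the 12, while Suv39h1 and Kdm1a were led by a protein-coding transcript there, and Ezh2 by a processed transcript. Ehmt1-208 held 26.9% ± 2.57 of Ehmt1, and the leading retained-intron transcript of Suv39h1 held 40.9% ± 15.7.

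Retained-intron transcripts are annotated for 27 members. Their median share of the gene's TPM was 32.0%, against 39.3% over the 6777 detected protein-coding genes with such a transcript. It was 30.5% over 17 writers and 38.6% over 10 erasers. Kdm1a had 60.9% ± 9.16, Suv39h1 59.8% ± 18.8, Setd5 57.3% ± 0.82, Kdm2a 55.5% and Jmjd1c 55.2% ± 5.85. In all, 11 of the 27 members were above 40%, a level close to the 39.3% median of detected protein-coding genes, so this count does not set members apart. At the other end Kdm3b had 2.70% and Nsd1 12.1%. In the second quantification Suv39h1 had 31.3% ± 7.07 and Kdm3b 5.15% ± 0.56, while Kdm1a had 49.7% ± 8.64. Retained-intron transcripts and nascent RNA that still held its introns cannot be told apart in these shares.

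**Figure D4:**
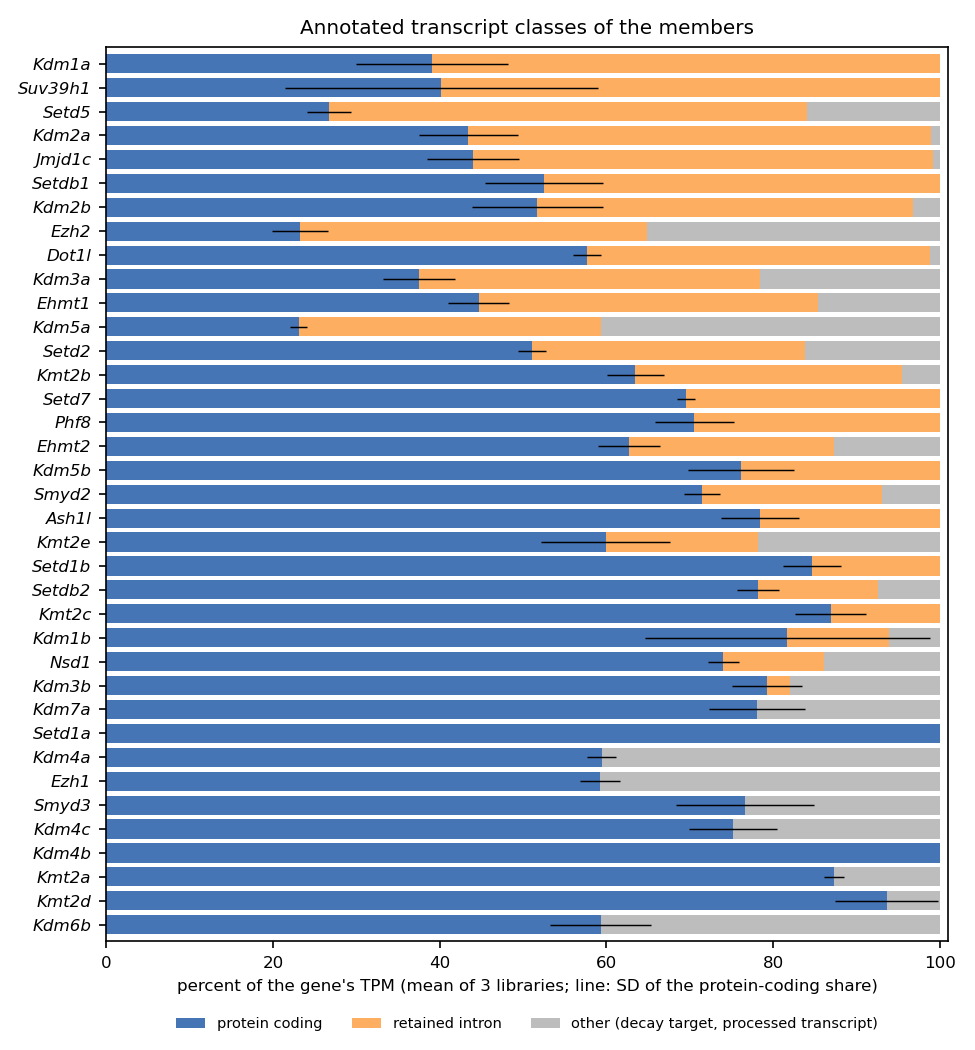
Share of each member's TPM (percent, mean of 3 libraries) in protein-coding (blue), retained-intron (orange) and other transcripts (grey), ordered by the retained-intron share, with the SD of the protein-coding share as a line. Kdm1a at 60.9% retained intron stands at the top, and Kdm6b, with 40.7% in the processed transcript Kdm6b-202 and no retained-intron form, is among the members at the bottom.

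No member was called for a spread between libraries beyond that of genes of similar abundance. The test asked of each gene, in edgeR's quasi-likelihood fit with Benjamini-Hochberg adjustment, whether its counts spread more than the trend, and called 0 of 13309 genes (0%), with 655 genes at an unadjusted p under 0.05. For members it called 0 of 37, with 0 at an unadjusted p under 0.05, and the smallest adjusted p was 0.992. A missed call does not show that a member was stable. On simulated counts the test called 62 of 100 genes changed 4-fold in 1 library and 100 of 100 changed 8-fold. Member ranges were at most 0.69 in log2, below both changes, so the test could not be relied on to call them. Of DESeq2's dispersion outliers, 54 genes or 0.406%, 0 were members. The range of log2 CPM over libraries had a median of 0.37 over members, against 0.51 over all genes tested.

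The widest ranges of log2 CPM belonged to Setd7 (0.69), Ehmt2 (0.65), Kdm4b (0.62), Kdm6b (0.60) and Dot1l (0.59), and the narrowest to Ezh1 (0.05). Setd7 had 5.96, 5.70 and 6.38 log2 CPM in libraries 1, 2 and 3, so it was high in library 3. Kdm6b had 9.13, 9.27 and 8.66 log2 CPM, Ehmt2 7.74, 8.11 and 7.46, Dot1l 8.28, 8.60 and 8.01, and Kdm4b 5.21, 5.42 and 4.80. These last genes shared a pattern, high in library 2 and low in library 3.

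As a whole the members were most often highest in library 2. Their highest log2 CPM fell in library 1 for 9 members, in library 2 for 19 and in library 3 for 9, against 29.6%, 32.9% and 37.5% of all genes tested. The median deviation of the members from their own mean was 0.03, 0.10 and −0.16 in libraries 1, 2 and 3. On the TPM scale library 3 was the highest for 35 of 37 members, against 87.5% of detected protein-coding genes, while their log2 CPM was highest in that library for 9 of 37. The starting amount of RNA moved with library, and its part in this was not tested.

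**Figure D5:**
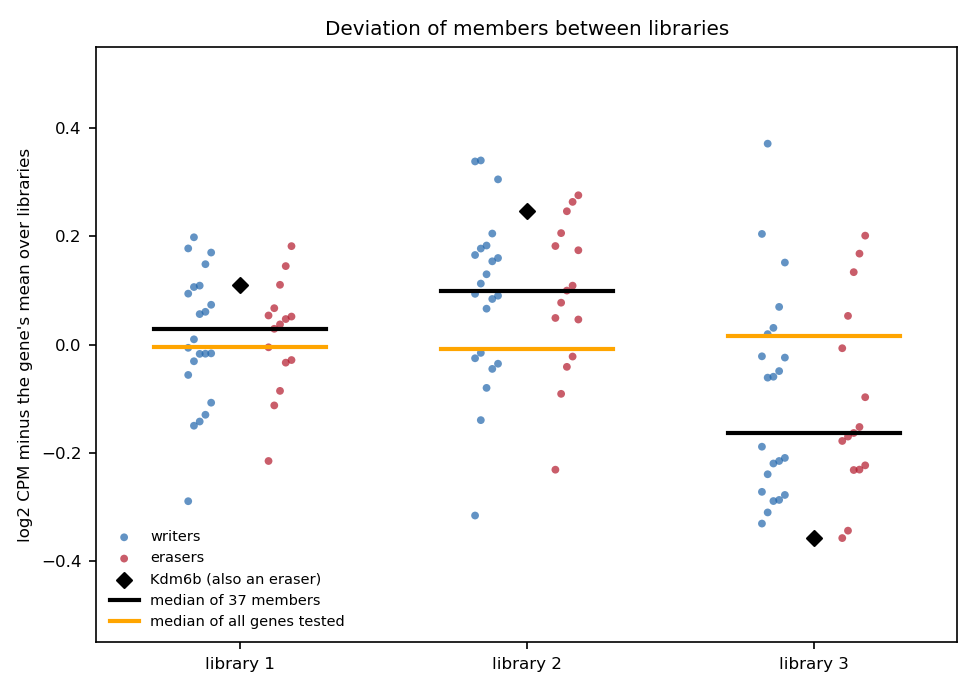
Deviation of each member's log2 CPM from its own mean over the 3 libraries, writers in blue and erasers in red, with Kdm6b as a black diamond and bars at the median of the members (black) and of all genes tested (orange). The member median is −0.16 in library 3, where the median of all genes tested is 0.02.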

How the data were processed

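Total RNA of the chromatin fraction was measured in 3 libraries of 1 group. Per the file headers, the deposited gene and transcript tables hold expected counts and TPM, posterior mean TPM, the percent of a gene's abundance in each transcript, and interval bounds of TPM, treated here as a score. A second deposited transcript table holds estimated counts and TPM, summed here per gene. Build mm10 and GENCODE M21 are stated in the deposited file notes; which tools were run, and with what strand setting, is not given in the sources used here. Entries without a gene annotation were left out; their share of expected counts was 1.03% in library 1, 0.245% in library 2 and 0.218% in library 3.

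Members and lists were chosen with earlier results of these data known. Values per library were given for Kdm6b, the 4 highest and 2 lowest writers and erasers, and the 5 members with the widest range; for partner lists, the 2 highest and the undetected genes. Ezh1, Ezh2 and Kdm6a were added as counterparts of Kdm6b, and pairs of relatives were picked after their values were seen. Detection meant a mean expected count of at least 10. Contrasts were differences of medians of log2(TPM + 0.1) within a library, as mean ± SD over libraries. Spread used expected counts rounded to whole numbers, filterByExpr, TMM scaling and an intercept-only quasi-likelihood fit in edgeR 4.0.16 (R 4.3.3), with DESeq2 1.42.0 as an alternative, at an adjusted p of 0.05. The test was tried on simulated counts with known changes, with the calls given above. Tables were made with pandas 2.3.3, numpy 2.4.6 and scipy 1.17.1 under Python 3.11.15, and figures with matplotlib 3.10.9. The replicates share a donor record, so p-values measure only the spread between these samples, which may be technical. Alternatives were other pseudocounts, the second quantification, posterior mean TPM, CPM, protein-coding transcripts only, other members, scalings and filters, and leaving out each replicate.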

Additional observations from a re-analysis of the deposited data

How the results depend on the processing

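Of 61 alternatives tried, 46 left a result within its spread or within 1.5 times its count, 15 moved it and 0 turned a called direction. Only Kdm6b minus other erasers could be marked as turned. Writers minus erasers lay within its spread, and ranks, counts and shares have no direction. Pairs of single genes, such as Kdm6b and Kmt2d, were not among the 61. Writers minus erasers in log2 was 0.34 in the second quantification, 0.39 in CPM without length correction, −0.37 without Kmt2e and Setd5 and 0.86 without members overlapping opposite-strand exons, and −0.04 to 0.10 on leaving out each replicate. With posterior mean TPM it was −0.003 and with means of members −0.01, within its spread of 0.14, so its sign was not settled. Kdm6b minus other erasers was 2.41 in CPM, 1.82 to 2.05 under the other scales, filters and pseudocounts, and 1.90 to 2.13 on leaving out each replicate. Kdm6b ranked 3 in the second quantification, 4 with protein-coding transcripts only and 7 in CPM. The spread test called 117 genes without a filter on low counts, 7 with the second quantification and 0 to 49 on leaving out a replicate (17 without replicate 1, 49 without replicate 2), and DESeq2 marked 54 outliers; 0 were members in each. The second quantification gave 12 members with a noncoding main transcript and a retained-intron share of 38.1%. No paired analysis was possible because there was 1 group. Depth limits Suv39h1 most, at 77 to 123 expected counts. The cause of these shifts was not tested.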

Other observations

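Members were long genes. Their merged exons had a median of 9318 bases against 4720 over detected protein-coding genes, 35 of 37 members were above that median, and their loci had a median span of 65.2 kb against 25.1 kb. Across the 37 members mean TPM and exon length had a Spearman rho of 0.52, mean TPM and span one of 0.26, and across the 10983 detected protein-coding genes TPM and exon length had one of 0.29. These are descriptions across genes of the same libraries.

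The 2 quantifications ordered the members alike, with a Spearman rho of 0.96 over 37 genes that share the same reads. At least 2-fold more in the second were 3 members, Kdm4b, Kdm1b (2.25-fold) and Kdm2b (2.08-fold), against 22.5% of detected protein-coding genes. At least 1.5-fold more were 10 members, among them also Ezh2, Kmt2e, Smyd3, Kdm3b, Kdm2a, Setd7 and Setd1a. At least 1.5-fold less were 0. The share of all genes at 1.5-fold was not taken, so these counts describe the members only. Kdm1b overlaps exons of Dek, and Kdm2b those of Rnf34, on the opposite strand.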
